A study of Mus musculus with 16 samples.

Results

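Rgs16 and Rab30 are genes of fasting signalling in the liver, and they are followed here through bulk RNA sequencing of mouse liver in which the fatty acid oxidation enzyme Cpt1a was present or deleted. They were picked by gene symbol, as 2 of 25803 genes with a count in the deposited tables, and both passed the filter on low counts that left 14488 genes for testing. The choice was made with measured values of these libraries in view. Rab30 had been named from how its genotype difference changed between the feeding states, and which values led to Rgs16 was not recorded in the sources used here. The levels and fold changes of both genes are therefore given as a description with no test, and tests are kept for other genes.

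All mice were male and received a high-fat diet (HFD) for 12 weeks. The 4 groups, with 4 livers each, were fasted control, fasted LKO, refed control and refed LKO, where LKO is a liver knockout of Cpt1a. Fasted mice went 16 h without food, and refed mice had the same 16 h fast followed by 6 h with food. The controls are labelled "Control" and are called WT in the design text. Which promoter or Cre made the knockout, the strain, the age, the hour of death and whether any animals were pooled are not given in the sources used here, so feeding state and hour of death cannot be told apart. The fasted control libraries are named S40 to S43 and the fasted LKO libraries S44 to S47. The refed ones are S48 to S51 for control and S52 to S55 for LKO, and each name is treated as 1 liver.

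The libraries held 14721601 to 24618230 counts, and the sum of 7 measured hepatocyte markers ran from 68261 to 95237 counts per M (mega) counts (CPM), with Alb, Ttr and Apoa1 among them. T, B and NK cell markers summed to 6.18 to 13.8 CPM. The adipocyte marker list moved with genotype: it summed to 1985 to 3444 CPM in fasted control against 147 to 1167 in fasted LKO, and to 3888 to 5376 in refed control against 1511 to 2409 in refed LKO, with no overlap in either state. Of its 6 genes 2 were tested, Car3 and Cfd, and both were lower in fasted LKO (−2.16 and −3.45, adjusted p = 0.0086 and 0.0182 by edgeR, the Cfd call being lost without S44 or S46), while Adipoq, Lep, Plin1 and Retn had at most 10 counts in a library. In the LKO groups the sum was nearly all Car3, whose means were 570 CPM (fasted) and 1957 CPM (refed). Cfd averaged 3.24 and 1.87 CPM there. The list is not read here as a measure of adipocytes, and whether adipocyte content differed between the genotypes was not tested. The part of these genes in the values of Rgs16 and Rab30 was not tested. Cpt1a, which encodes the enzyme that admits long-chain fatty acids to mitochondrial oxidation, stood at 319 to 620 CPM in the control libraries and at 39.9 to 126 CPM in the LKO libraries, with no overlap in either state. Its log2 fold change was −2.28 in the fasted and −3.08 in the refed state (adjusted p = 1.4e-04 and 8.2e-06 by quasi-likelihood testing in edgeR, adjusted after Benjamini and Hochberg over all genes tested). In bulk liver, fewer cells of a type and less RNA per cell cannot be told apart.

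RGS proteins bind active alpha subunits of heterotrimeric G proteins and speed up GTP hydrolysis, which ends the signal of a hormone receptor. RGS16 acts on subunits of the Gi and Gq classes, and in mouse liver its mRNA is known as a transcript of periportal hepatocytes that is high in the fasted state. RAB proteins are small GTPases that mark membrane compartments and recruit the machinery of vesicle traffic. RAB30 is a RAB protein of the Golgi apparatus, and its mRNA is known to be induced by fasting in mouse liver.

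Rgs16 (ENSMUSG00000026475) lies on the plus strand of chromosome 1 from 153616095 to 153621214 in the deposited coordinates (mm39, per the submitters' processing notes), a span of 5.12 kb with a deposited gene length of 2339 bases. Rab30 (ENSMUSG00000030643) lies on the plus strand of chromosome 7 from 92390811 to 92493743, a span of 102.933 kb with a deposited gene length of 9642 bases. Both are protein-coding. The promoter table of RefSeq matched 1 of the 2 genes, Rgs16, and held no entry for Rab30. The 250 bases before the start of Rgs16 are therefore the only such stretch shown. Fasting and feeding factors are known for short motifs that can be looked up in it. The sequence is from RefSeq on GRCm38.p6, an older build than that of the tables, at chr1:153740103-153740352 on the plus strand. Capitals mark a CCAAT box, read here from the opposite strand, and a TATA-like ATAAAA.
Rgs16 promoter: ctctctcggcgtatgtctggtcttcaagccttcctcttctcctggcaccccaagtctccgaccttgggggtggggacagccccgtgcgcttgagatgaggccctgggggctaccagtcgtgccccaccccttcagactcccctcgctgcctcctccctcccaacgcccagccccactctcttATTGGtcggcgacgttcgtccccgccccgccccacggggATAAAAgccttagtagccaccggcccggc

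The stretch had a GC content of 66.4%, against a median of 52.4% over 32851 RefSeq promoter stretches of this length, of which 85.2% lay lower. Both strands were searched. The cAMP response element TGACGTCA had 0 matches and is in 1.55% of the stretches. Its part TGACG had 0 matches and is in 17.8%. The nuclear receptor element AGGTCA had 0 matches and is in 14% of the stretches, and the DR1 arrangement of a pair of such elements had 0 and is in 0.0335%. The E-box CACGTG (0 matches, 6.02% of stretches) and the D-box TTACGTAA (0 matches, 0.113%) are elements read by carbohydrate-responsive and clock factors, among others. CCAAT had 1 match on the minus strand, at −68 from the start, and is in 33.8% of the stretches, and ATAAAA had 1 match at −29 and is in 17%. The last pair of motifs was looked up after the sequence had been read. These are matches and misses of letters in this window only.

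Rgs16 stood highest in the fasted control livers and lowest in the refed control livers. In fasted control the 4 libraries S40 to S43 held 44.9, 279.9, 113 and 61.4 CPM. In fasted LKO, S44 to S47 held 106, 39.9, 124 and 40.7 CPM. Library S41 stood at more than any other library of the series, and both fasted groups contained livers of around 40 to 60 CPM. In refed control, S48 to S51 held 12.2, 18.9, 17.8 and 28.0 CPM. In refed LKO, S52 to S55 held 12.2, 72.9, 66.2 and 36.6 CPM. The refed control livers were all low, whereas the refed LKO livers ran from the refed control level up to the level of several fasted livers.

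Group means of Rgs16 were 125 ± 107 CPM in fasted control, then 77.6 ± 43.8 in fasted LKO, 46.97 ± 28.0 in refed LKO and 19.2 ± 6.56 in refed control (SD over 4 livers). No neighbours in that order were separated, since their libraries overlapped. Both fasted groups lay wholly above refed control, and each fasted group overlapped refed LKO. Of all genes tested, 10.1% were lower in refed than in fasted control with no overlap. No such share was computed for fasted LKO against refed control. Counts of Rgs16 ran from 191 to 4796 per library and those of Rab30 from 135 to 1288.

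Rab30 stood highest in the fasted LKO livers. In fasted control, S40 to S43 held 18.1, 23.0, 17.8 and 23.2 CPM. In fasted LKO, S44 to S47 held 64.3, 37.1, 51.1 and 57.2 CPM. Each fasted LKO library lay above every other library of the series, and the lowest of them, S45, was 1 of the low libraries for Rgs16. In refed control, S48 to S51 held 13.4, 7.17, 15.8 and 24.7 CPM. In refed LKO, S52 to S55 held 9.77, 11.1, 14.4 and 8.97 CPM. The refed control livers spread over both the fasted control and the refed LKO levels.

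Group means of Rab30 were 52.4 ± 11.6 CPM in fasted LKO, 20.5 ± 2.95 in fasted control, 15.3 ± 7.27 in refed control and, lowest, 11.0 ± 2.39 in refed LKO (SD over 4 livers). Fasted LKO was separated from all other groups and fasted control from refed LKO, while refed control overlapped both groups next to it. Across the 16 libraries the log2 CPM of the 2 genes had a Pearson r of 0.47 and a Spearman rho of 0.47. After the group means were taken out, r was 0.35 and rho 0.41. These points share libraries, depth and, in the first case, the groups.

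**Figure D1:**
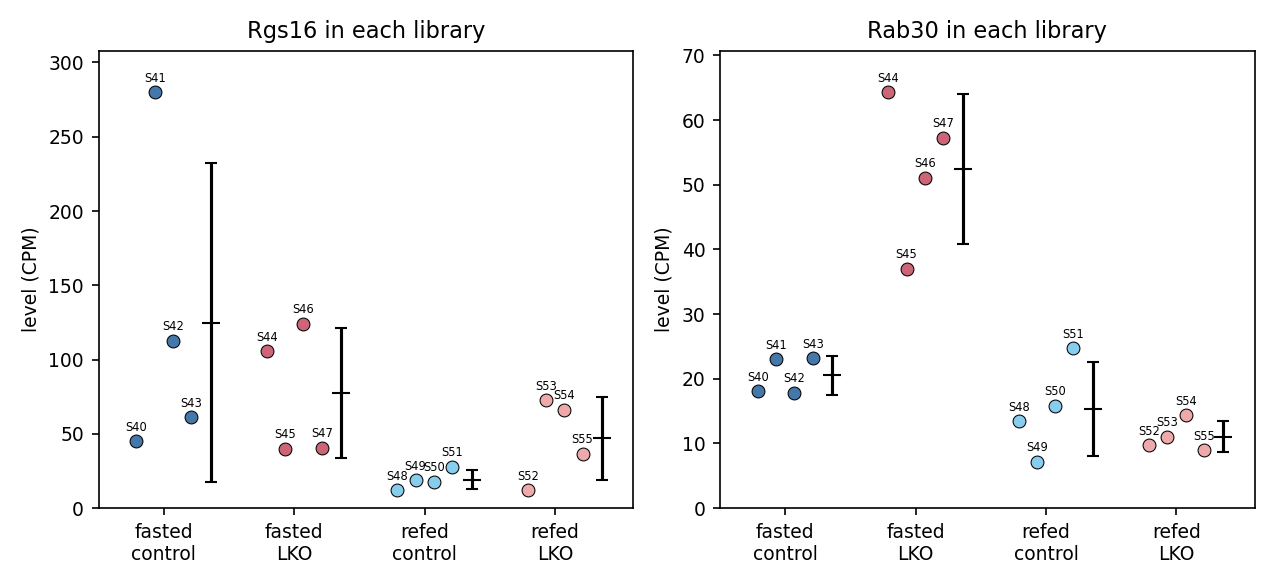
CPM of Rgs16 and of Rab30 in each of the 16 livers, by group, on linear axes that start at 0. Points are livers with their library names, and bars are group means with SD (n = 4). S41 stands alone at 279.9 CPM for Rgs16, and the 4 fasted LKO livers stand at 37.1 to 64.3 CPM for Rab30, above all others.

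The first question was how refeeding moved the members in control liver. Rgs16 stood 6.49-fold lower after refeeding in control liver, a log2 fold change of −2.70 (SE 0.61), and in 16 of 16 pairs of libraries the refed one was lower. Rab30 differed by −0.43 (SE 0.27) with overlap, the refed library being lower in 12 of 16 pairs. The other 4 pairs all held S51, which at 24.7 CPM stood above every fasted control library (17.8 to 23.2 CPM). For background, 10.1% of the genes tested were lower and 10.4% higher after refeeding in control liver with no overlap of libraries. Rgs16 therefore carried the larger refeeding difference of the pair in control liver, and without S41 its value was −1.92, the smallest over 16 omissions of 1 library, of which the largest was −2.98 without S40.

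In LKO liver the members changed places. Rab30 stood 4.76-fold lower after refeeding, at −2.25 (SE 0.27), with refed below fasted in 16 of 16 pairs and a range of −2.40 to −2.14 when libraries were left out. Rgs16 differed by −0.73 (SE 0.57), with overlap and refed lower in 12 of 16 pairs. The background in LKO liver was 9.95% of genes lower and 10.6% higher with no overlap.

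Set by genotype, Rab30 stood 2.56-fold higher in fasted LKO than in fasted control, at 1.35 (SE 0.26), with 16 of 16 pairs higher against a background of 8.3% of genes higher and 8.57% lower with no overlap. Leaving out a library kept it between 1.24 and 1.48. In the refed state Rab30 differed by −0.47 (SE 0.27), and LKO was the higher library in 5 of 16 pairs. That value ran from −0.70 without S49 to −0.15 without S51, the lowest and the highest refed control livers for this gene. S49 also had the highest and S51 the lowest macrophage marker sum of all libraries, at 971 and 271 CPM. The 12 macrophage markers summed to 321 to 559 CPM in fasted control and 372 to 539 in fasted LKO, and to 271 to 971 in refed control and 285 to 422 in refed LKO, and their part in the Rab30 values was not tested. None of the 12 passed in any contrast by edgeR, with 5 at an unadjusted p under 0.05 in the refed genotype contrast and 0 called by DESeq2.

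Rgs16 went the other way in each state. In the fasted state it differed by −0.68 (SE 0.57) between LKO and control, LKO being higher in 5 of 16 pairs. Without S41 the value was 0.09 (SE 0.52), so that the direction rested on that liver, and without S46 it was −1.004. In the refed state Rgs16 differed by 1.29 (SE 0.59), with LKO higher in 12 of 16 pairs and a range of 0.99 to 1.61 on omission of single libraries. No genotype difference of Rgs16 separated the groups. In the refed state 6.7% of all genes were higher and 5.03% lower in LKO with no overlap.

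The difference of the genotype effects, refed minus fasted, was −1.82 (SE 0.38) for Rab30 and 1.97 (SE 0.82) for Rgs16. On omission of single libraries it ran from −2.06 to −1.50 for Rab30 and from 1.19 to 2.29 for Rgs16, the lowest without S41. Over all genes 0.538% were called for this difference, 0.311% above and 0.228% below 0. The contrasts share libraries with each other. The authors' deposited tables, turned to the same directions, gave −0.69 and 1.29 for the genotype and −2.70 and −0.72 for the refeeding values of Rgs16. For Rab30 the authors' deposited tables gave 1.34 and −0.46 for the genotype and −0.43 and −2.24 for refeeding.

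**Figure D2:**
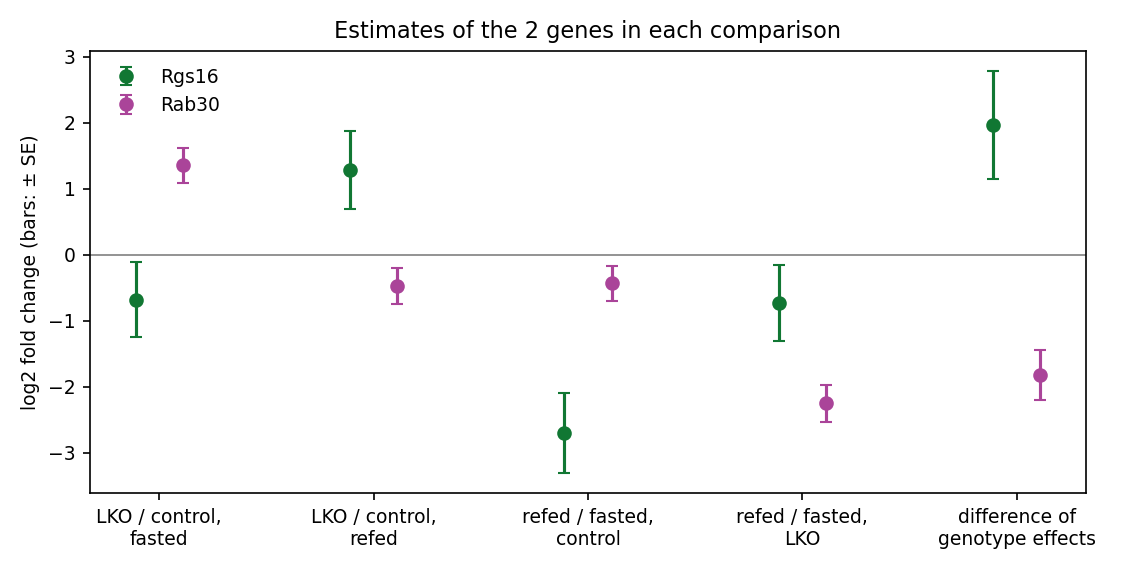
Log2 fold changes of Rgs16 and Rab30 in the 4 group contrasts and the difference of the genotype effects (vertical axis), with SE bars. Each SE is the absolute log2 fold change divided by the square root of its edgeR F statistic. Rgs16 after refeeding in control and Rab30 after refeeding in LKO lie far below 0, at −2.70 and −2.25, and the 2 genes lie on opposite sides of 0 in both genotype contrasts.

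The livers of 1 group differed far more in Rgs16 than in most genes. The highest library was 6.24 times the lowest in fasted control, 3.11 times in fasted LKO, 2.30 times in refed control and 5.98 times in refed LKO. The SD of log2 CPM within groups was 0.97 for Rgs16 and 0.44 for Rab30, against a median of 0.167 over the 9344 genes with a mean of at least 5 CPM. Of those genes 63 varied more than Rgs16 and 525 more than Rab30. By group, Rgs16 varied more than 99.6%, 98.4%, 94.4% and 99.8% of genes in the groups of S40, S44, S48 and S52, in that order. Rab30 varied more than 97.9% of genes in refed control, where its coefficient of variation was 47.6%, and more than 75.5% in fasted control, where it was 14.4%.

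**Figure D3:**
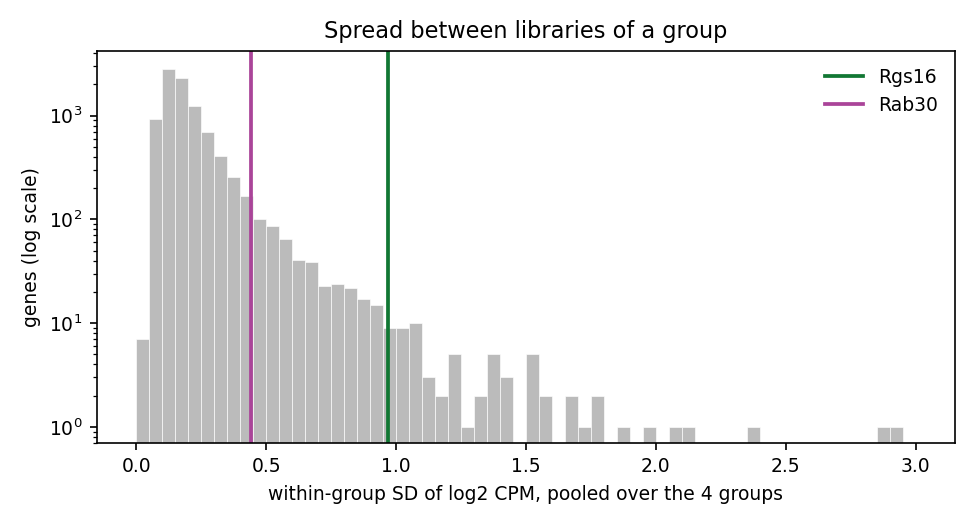
Distribution over 9344 genes of the SD of log2 CPM within groups (horizontal axis) against the number of genes (vertical axis, log scale), with Rgs16 and Rab30 marked. Rgs16 at 0.97 lies in the far tail, Rab30 at 0.44 in its shoulder, and the median gene is at 0.167.

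Likeness to each member was taken as Pearson r of log2 CPM over the 16 libraries, and again on residuals from the 4 group means. It was ranked among 9045 genes with a mean of at least 5 CPM, leaving out unnamed genes and those with Gm or Rik symbols. Likeness is a description of these libraries. For Rab30 the most alike gene was Grpel2, a cochaperone of mitochondrial protein import, at r = 0.97 (rho 0.96). Grpel2 averaged 75.2 CPM in fasted LKO, 40.5 in fasted control, 28.0 in refed control and 22.2 in refed LKO, the group order of Rab30 itself. Wdr73, Enc1, Elmod3 and Cdc42bpa followed at 0.95 to 0.94. Map2k6, a kinase of the p38 pathway, was the least alike at −0.95.

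On residuals, where the groups cannot contribute, Rab30 was most like Plin2, the coat protein of lipid droplets, at r = 0.94 (rho 0.77). Plin2 stood at 3250 CPM in S44 and 1816 CPM in S45, the highest and lowest fasted LKO livers for both genes. In refed control it stood at 1057 CPM in S51 and 365.5 CPM in S49, again the highest and lowest livers for both. Plscr1, Palmd, Mapre3 and Slc23a2 followed at 0.93 to 0.90. Acly, the enzyme that makes cytosolic acetyl-CoA for lipid synthesis, was the least alike at −0.89 (rho −0.70), with 250.2 CPM in S49 and 75.8 CPM in S51. By rho the most alike gene was Palmd (0.89), with Plin2 at rank 32. The least alike by rho was Rbm3 (−0.90), with Acly at rank 63 from that end.

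For Rgs16 over 16 libraries the most alike genes were Tmem243 (r = 0.86), Fbxo31, Txnrd3, Tlcd1 and Ubald1 (0.85 to 0.83). Tmem243 averaged 80.4 CPM in both fasted groups, 65.6 in refed control and 69.9 in refed LKO, a much narrower range than that of Rgs16. Asph was the least alike at −0.87. On residuals Rgs16 was most like Acadvl, the very long-chain acyl-CoA dehydrogenase of mitochondrial fatty acid oxidation, at r = 0.88 (rho 0.89). In fasted control Acadvl stood at 201, 247, 224 and 201 CPM in S40 to S43, with S41 and S42 the higher livers as for Rgs16. Scyl3, Plbd1, Pctp and Wsb2 followed at 0.87 to 0.84, and Ctnnbip1, an inhibitor of beta-catenin, was the least alike at −0.92.

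Among the gene lists, the 30 targets of PPARA, the nuclear receptor that responds to fatty acids, had a median residual r of 0.57 with Rgs16 and of 0.35 with Rab30, against 0.01 for Rgs16 over 9044 genes. With Rgs16 the lowest medians were those of Car3 and Cfd, the 2 genes measured of the adipocyte list (−0.47), and of the periportal hepatocyte genes (−0.42). With Rab30 the 10 CREBH targets had 0.38, glucose-induced targets of ChREBP −0.36, red blood cell markers −0.44 and macrophage markers −0.57.

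**Figure D4:**
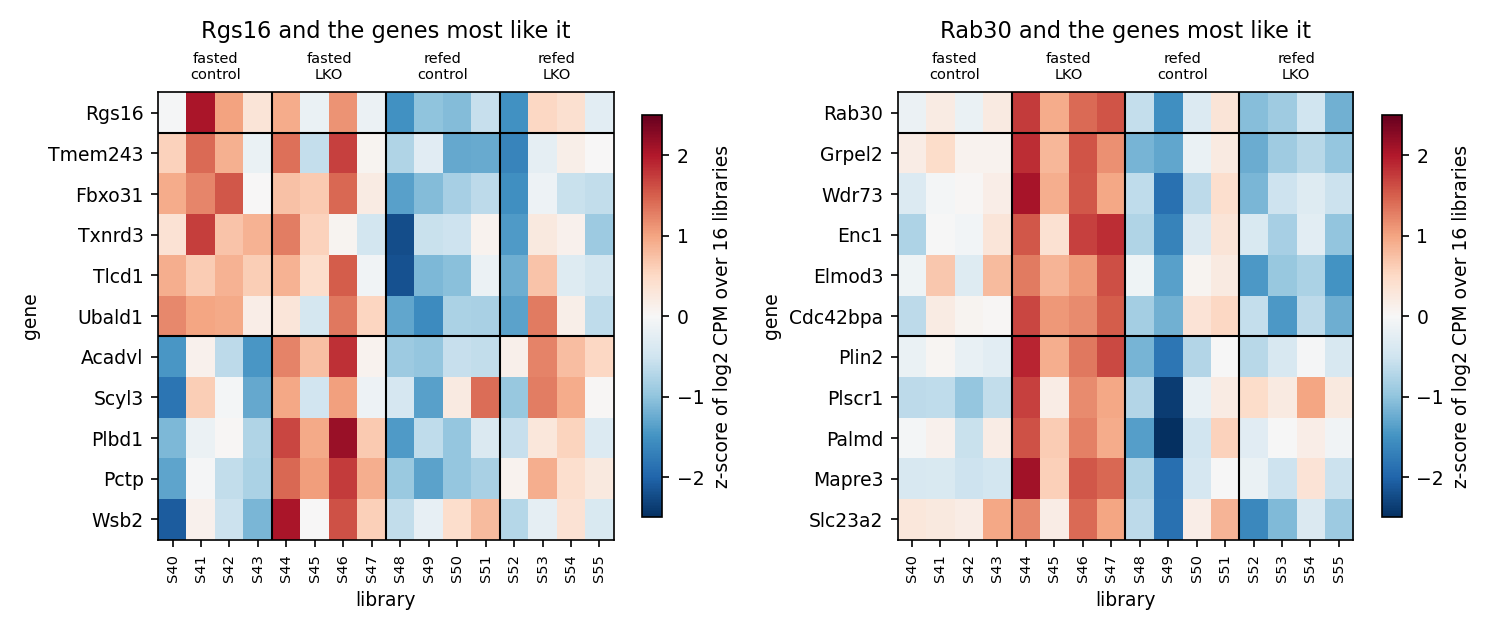
Levels across the 16 livers (columns) of Rgs16, Rab30 and the 10 genes named as most like each (rows, first the 5 by all libraries, then the 5 by residuals), with colour giving the z-score of log2 CPM over the livers. Grpel2 and Plin2 are high in the fasted LKO livers as Rab30 is, and Acadvl stands higher in S41 and S42 than in S40 and S43 as Rgs16 does.

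Per kb of gene length, Rgs16 had the highest mean of the 14 tested genes of the RGS list, itself included, in all 4 groups. It stood at 53.3 CPM per kb in fasted control, then 33.2 in fasted LKO, 20.1 in refed LKO and 8.23 in refed control. Axin1, a scaffold of the beta-catenin destruction complex, followed at 6.49 CPM per kb in fasted control, and Rgs5 at 5.33. In refed control Rgs5 at 6.37 was close behind Rgs16. Without division by length, Rgs5 (28.9 CPM) and Axin1 (23.8 CPM) stood above Rgs16 (19.2 CPM) in that group. Per kb, Rab30 was at rank 25 of 44 in fasted LKO (5.44 CPM per kb), 34 in fasted control (2.13) and in refed control (1.59), and 35 in refed LKO (1.15). These ranks depend on the deposited gene length, 9642 bases for Rab30. In fasted LKO, Rab9 was close to Rab30 in CPM (54.6 against 52.4) yet had rank 6 per kb. Rab1b and Rab7, of the early secretory and late endosomal routes, led the family in fasted control at 95.6 and 84.7 CPM per kb.

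Of 24 other RGS genes listed, 22 were in the tables and 13 were tested. In the fasted genotype contrast 2 were higher and 1 was lower in LKO, 23.1% of those tested against 12.2% of all genes called (5.75% higher, 6.48% lower). They were Axin2 at 0.83 (adjusted p = 0.0124), Snx13 and Rgs12, and 1 gene was left without S40, S42, S44 or S47. After refeeding 0 passed in control liver by edgeR (2 at an unadjusted p under 0.05, 1 by DESeq2, 1 without S44, S48 or S50) and 2 fell in LKO liver, Axin2 at −0.83 (adjusted p = 0.0077) and Snx13, against 15.4% of all genes called in control liver (7.79% higher, 7.65% lower) and 18.1% in LKO liver (9.28% higher, 8.78% lower). In the refed genotype contrast 0 passed by edgeR (4 at an unadjusted p under 0.05, 1 by DESeq2, 1 without S50), with 3.63% of all genes called (2.28% higher, 1.35% lower).

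Among 20 G protein subunits tested, 2 were lower in fasted LKO and 1 in refed LKO, shares of 10% and 5% near the 12.2% and 3.63% of all genes. Gna14, 1 of the alpha subunits of the Gq class, was lower in LKO by 2.84 on the log2 scale in the fasted state and by 2.35 in the refed state (edgeR adjusted p = 8.5e-04 and 0.0045). Its level was low, with means of 0.60 CPM in fasted LKO, 1.11 in refed LKO and 5.76 in refed control. Gna11 and Gnaq, of the same class, averaged 76.2 and 13.9 CPM in fasted LKO and passed in neither genotype contrast. After refeeding 2 rose and 4 fell in control liver (30% against 15.4% of all genes), and 2 rose in LKO liver (10% against 18.1%), where 1 was left without S44, S46, S52 or S53 and 0 without S55. Of 27 receptors and effectors of hepatocyte hormone signalling, 3 passed in fasted LKO (1 higher, 2 lower), 1 was lower in refed LKO, 3 rose after refeeding in control, and 3 rose and 2 fell in LKO. These are 11.1%, 3.7%, 11.1% and 18.5%, against 12.2%, 3.63%, 15.4% and 18.1% of all genes. The refed genotype count was 0 without S48, S50, S53, S54 or S55 and 2 without S51, and the control refeeding count was 5 without S51. Adra1b, the alpha-1B adrenergic receptor that works through Gq, was lower in fasted LKO (−1.38, adjusted p = 0.0056) and rose in LKO liver after refeeding (1.37, adjusted p = 0.0037). Gcgr, the glucagon receptor, passed in none of the contrasts.

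Of 57 RAB genes listed besides Rab30, 55 were in the tables and 43 were tested. In fasted LKO 4 were higher and 1 lower, a total of 5 that was 1 without S40 or S43, 2 without S44 or S46, 3 without S41 and 8 without S45. That is 11.6% against 12.2% of all genes. In control liver 3 rose and 5 fell after refeeding (18.6% against 15.4% of all genes), a total of 8 that was 3 without S40, 4 without S50 and 5 without S43, S48 or S49. Rab1a, of transport between endoplasmic reticulum and Golgi, rose by 0.54 (adjusted p = 0.0016). In LKO liver 1 rose and 3 fell (9.3% against 18.1% of all genes), among them Rab9 at −0.91 (adjusted p = 8.0e-05), and a single gene passed without S52 or S55 and 7 without S51. In the refed genotype contrast 0 passed by edgeR (5 at an unadjusted p under 0.05, 1 by DESeq2, 1 without S43, S51 or S53).

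The Golgi list covers the compartment where RAB30 resides. Of 32 genes tested, 7 were higher and 1 lower in fasted LKO (25% against 12.2% of all genes), a total that was 5 without S40, S43, S44 or S46. Copb1, Copb2 and Arf4, parts of the COPI coat machinery, were among those higher, at 0.42, 0.35 and 0.40 (edgeR adjusted p = 0.0181, 0.0071 and 0.0288). The Copb1 call was lost without S40, S43, S44 or S46 (0.064 at the highest), and the Arf4 call without these or S42 (0.1002 at the highest). Tgoln1, a protein of the trans-Golgi network, was higher in fasted LKO (0.74, adjusted p = 0.0086) and fell in LKO liver after refeeding (−0.99, adjusted p = 7.2e-04). After refeeding 7 rose and 2 fell in control liver (28.1% against 15.4%) and 2 rose and 2 fell in LKO liver (12.5% against 18.1%). In the refed genotype contrast 0 passed by edgeR (3 at an unadjusted p under 0.05, 1 by DESeq2).

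Genes that fasting is known to turn on through PPARA were mostly higher in fasted LKO. In fasted LKO 25 of 30 were higher and 0 lower (83.3% against 12.2% of all genes). Their median log2 fold change was 0.77 against 0.02 over all genes. Ehhadh, of peroxisomal fatty acid oxidation, was higher by 2.97 (adjusted p = 3.9e-04), and Plin2 by 1.38 (adjusted p = 0.0022). In refed LKO 9 were higher and 0 lower by edgeR (30% against 3.63% of all genes, 15 called by DESeq2), with a median of 0.53. In control liver 0 passed after refeeding, against 15.4% of all genes, with a median of −0.11. There were 7 at an unadjusted p under 0.05, 3 by DESeq2, 6 without S51 and 1 without S40, S44 or S45. In LKO liver 15 fell and 0 rose (50% against 18.1% of all genes), with a median of −0.45 against −0.02 over all genes. Plin2 fell by 1.57 there (adjusted p = 5.1e-04). The test of the difference between the genotypes was passed by 1 of the 30 (edgeR; 4 by DESeq2).

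The FOXO1 list holds genes that insulin is known to turn down. Of 16 tested, 8 fell and 1 rose in LKO liver after refeeding (56.25% against 18.1% of all genes), with a median of −0.40. In control liver 1 fell and 1 rose (12.5% against 15.4% of all genes), with a median of −0.01. The 2 genes called in control were G6pc and Fbxo32, and 1 was left in 11 of the 16 omissions of a library. Pdk4, the kinase that shuts off pyruvate dehydrogenase, stood at 34.1, 6.28, 13.5 and 49.97 CPM in S44 to S47. It fell in LKO liver after refeeding (−2.76, adjusted p = 0.0013), and its control value was 0.03 (adjusted p = 0.978). The Pdk4 difference between the genotypes, −2.79, did not pass (edgeR adjusted p = 0.0707). Irs2, an adaptor of the insulin receptor, fell in LKO liver (−1.98, adjusted p = 0.0014) and stood at −0.43 in control (adjusted p = 0.464), and its difference of −1.54 did not pass either (adjusted p = 0.149). Ccng2 was the list member whose difference passed, at −1.44 (adjusted p = 0.0194), and it was lost without S48 (0.054). In the fasted genotype contrast 5 were higher and 1 lower in LKO (37.5% against 12.2% of all genes), a total of 3 without S41 or S44. In the refed genotype contrast 1 was lower (6.25% against 3.63% of all genes), 0 without S48, S50 or S55.

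Genes of glucagon and cAMP signalling, the hormone route of fasting, were called at shares of 5.88% in each genotype contrast, 17.6% after refeeding in control and 11.8% in LKO, against 12.2%, 3.63%, 15.4% and 18.1% of all genes. Of 17 tested, 3 rose and 0 fell in control liver after refeeding, and 0 rose and 2 fell in LKO liver, 1 without S46 or S52. The 3 were Crem, Sik1 at 1.17 (adjusted p = 0.0065) and G6pc, the last enzyme of glucose release, at 1.49 (adjusted p = 0.0102). Sik1 was also the single gene higher in fasted LKO, at 1.04 (adjusted p = 0.0137), and Crem the single gene lower in refed LKO, with 0 left without S48 or S55 and 2 genes called without S52. The fasted count was 2 without S42 or S45. Of 11 CREBH targets 5 were higher in fasted LKO (45.5% against 12.2% of all genes, 3 without S41, S42, S44, S51 or S54). In refed LKO 2 were higher (18.2% against 3.63%). In control 1 fell after refeeding (9.09% against 15.4%), 0 without S40, S42, S43, S48, S50 or S55, and 2 without S51. In LKO 4 fell and 1 rose (45.5% against 18.1%). That total of 5 was 2 without S44, S46, S52 or S55 and 3 without S45, S53 or S54.

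ChREBP is the factor through which glucose turns on lipogenic genes. Of 19 targets 9 rose and 0 fell after refeeding in control liver (47.4% against 15.4% of all genes). In LKO liver 9 rose and 1 fell, Txnip (52.6% against 18.1%). Thrsp, tied to lipogenesis, rose by 3.70 in LKO, and Fasn, fatty acid synthase, by 2.70 (adjusted p = 3.1e-04). Fasn rose by 1.49 in control (adjusted p = 0.0157), a call lost without S40 or S49 (adjusted p = 0.058 at the highest). In fasted LKO 6 were lower and 0 higher (31.6% against 12.2% of all genes). In refed LKO 3 were lower and 0 higher (15.8% against 3.63%), 1 without any of S40 to S43, S48, S49 or S53 to S55. Glucocorticoid-induced genes gave 1 higher and 1 lower of 14 in fasted LKO (14.3% against 12.2% of all genes), 1 in all without any of S41 to S44 or S47 and 0 without S46. After refeeding 0 rose and 3 fell in control liver (21.4% against 15.4%), and 2 rose and 3 fell in LKO liver (35.7% against 18.1%, 3 in all without S52). Mt1 and Mt2, the metallothioneins, fell by 3.46 and 3.72 in control and by 3.69 and 3.96 in LKO on the log2 scale.

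Clock genes moved with refeeding in both genotypes. Of 19 tested, 4 rose and 3 fell in control liver (36.8% against 15.4% of all genes). In LKO liver 5 rose and 3 fell (42.1% against 18.1%), 5 in all without S44. Cry1, a repressor of the core loop, rose by 2.61 in control (adjusted p = 0.0012) and by 2.20 in LKO (adjusted p = 0.0020), and Nr1d1 fell by 2.29 and 2.05 (adjusted p = 7.2e-04 and 6.3e-04). In fasted LKO 2 were lower (10.5% against 12.2% of all genes), 1 without S42 or S44 and 5 in all without S45. Cry1 and Nr1d1 changed by like amounts in the 2 genotypes. Bhlhe40, the clock gene called in the most contrasts, rose by 0.73 in control and by 1.34 in LKO. Between fasted LKO and fasted control Bhlhe40 differed by −0.81 (adjusted p = 0.0053 by edgeR). For the difference of the genotype effects, 0 of the 19 passed by edgeR and 4 had an unadjusted p under 0.05. Rgs16 stood at −2.70 in control and −0.73 in LKO, and Rab30 at −0.43 and −2.25. The part of the clock or of the hour of death in these values was not tested.

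**Figure D5:**
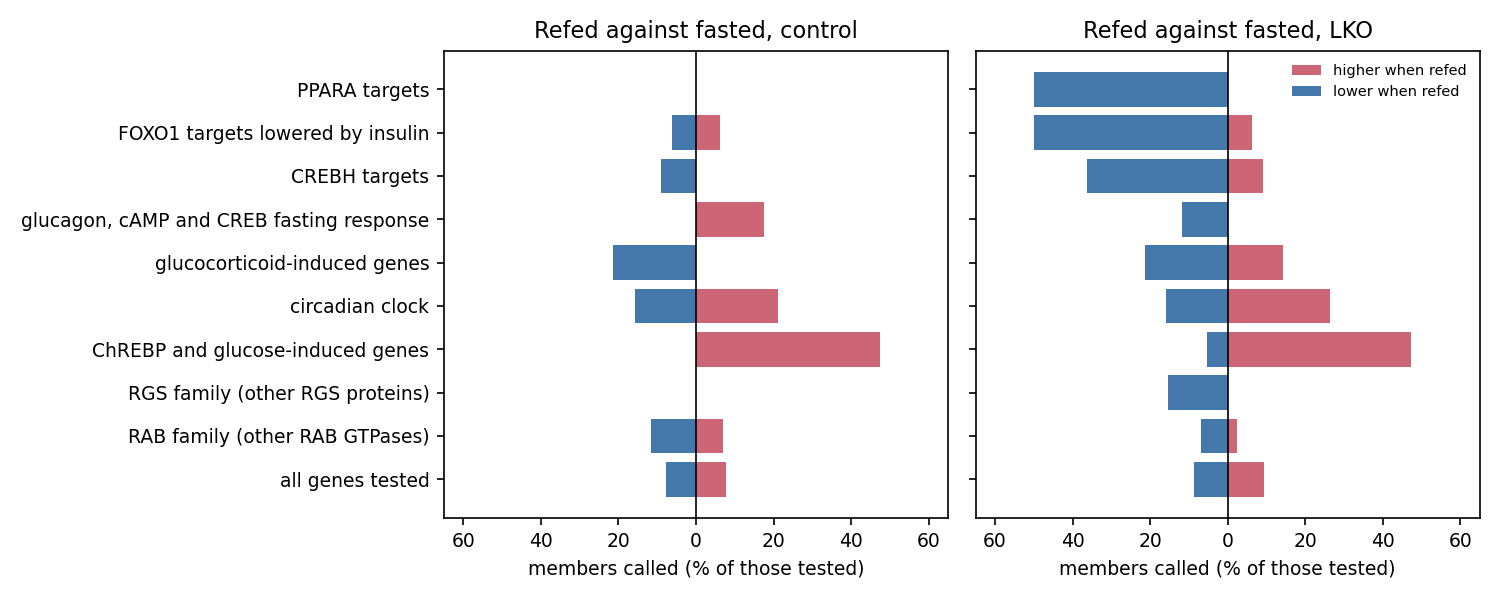
Percentage of the tested members of each gene list called after refeeding in control and in LKO liver, to the right of 0 for members that rose and to the left for those that fell, with all genes tested in the last row. PPARA targets have 0 of 30 called in control (6 without S51) and 15 of 30 lower in LKO, with 1 of 30 called for the difference between the genotypes, and ChREBP targets have 9 of 19 higher in both.

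Because the known home of Rgs16 in liver is the periportal hepatocyte, genes of both zones were counted. Of 18 periportal genes 1 was higher and 1 lower in each genotype contrast (11.1% against 12.2% of all genes in the fasted and 3.63% in the refed state). Their medians were −0.43 and −0.37, with 4 of 18 above 0 in either state and 11 and 9 at an unadjusted p under 0.05. Of the 18, 0 passed after refeeding in control liver, against 15.4% of all genes, and 1 fell in LKO liver (5.56% against 18.1%). The fasted count of 2 was 6 by DESeq2, 5 without S49 and 4 without S41, S45, S47, S50 or S52, and the refed count of 2 was 5 by DESeq2, 6 without S52 and 1 without S48, S49, S50 or S53 to S55. The counts after refeeding, 0 and 1, lay between 0 and 2 in every setting. Of 16 pericentral genes 1 was higher and 6 lower in fasted LKO (43.75% against 12.2%), with a median of −0.62. In refed LKO 3 were lower (18.75% against 3.63%), with a median of −0.34. After refeeding 1 rose in control liver (6.25% against 15.4%), a count of 0 without S40, S42, S43, S48 or S50. In LKO liver 3 rose and 2 fell (31.25% against 18.1%), a total of 3 without S44. Cyp2c29 was lower by 1.75 and 1.68 on the log2 scale in the fasted and refed LKO livers. Whether zonal shifts bear on Rgs16 was not tested.

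For each member, 2 of the 10 nearest tested genes passed in at least 1 of the 5 contrasts, as did 33.4% of all genes tested. These genes reach as far as 1382 kb from Rgs16 and 4237 kb from Rab30. Of the 2 called for Rab30, 1 lies 4107 kb from it. Glul, glutamine synthetase of pericentral hepatocytes, lies 154 kb after Rgs16 and was lower in fasted LKO (−0.84, adjusted p = 0.0045). Ddias, 13.0 kb after Rab30, averaged 1.12 CPM and was higher in refed LKO (2.66, adjusted p = 0.0153), a state in which Rab30 stood at −0.47. Prcp, 29.9 kb after Rab30, and Pcf11, 71.7 kb before it, passed in none. The noncoding Gm28513 overlaps Rgs16 on the other strand with 122 counts over all libraries and at most 35 in 1, and 4632427E13Rik, at 0.61 CPM, starts 0.093 kb before Rab30 on the other strand, head to head with it. Whether counting used strand is not stated, so reads of Rgs16 and of Gm28513 cannot be told apart with certainty.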

How the data were processed

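Liver RNA of 16 mice was sequenced after poly-A selection, with random hexamers and dUTP, per the labels' protocols. Reads were processed with HISAT2 2.0.5 and build mm39, per the submitters' processing notes, and the counting tool is not given in the sources used here. The authors deposited 4 tables of 8 libraries each with raw read counts per gene. Their log2 fold changes and p-values are deposited too, of which the log2 values are quoted once and the p-values are not used. Another 64 columns that hold values of single libraries were left aside. Columns S40 to S55 were assigned to groups by the group headings of the tables that share them, and no replicate number could be attached. Tables were joined on gene identifier (25803 genes, with 0 counts differing between tables), and 3148 genes missing from both tables of a library were set to 0 there.

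The analysis of counts ran in edgeR 4.0.16 under R 4.3.3. The 14488 genes passing filterByExpr were scaled with TMM factors (0.941 to 1.07), and glmQLFit was given 1 factor of 4 levels, at a biological coefficient of variation of 0.185. The 5 contrasts were tested by glmQLFTest with Benjamini-Hochberg adjustment, and a gene was called at an adjusted p under 0.05. An SE is the absolute log2 fold change divided by the square root of the F statistic of that test. CPM use TMM-scaled totals, and log2 CPM a prior count of 2. The code was tested on simulated counts. Alternatives were DESeq2 1.42.0, upper quartile and RLE scaling, no filter, a filter at a mean of 5 CPM, limma-voom (limma 3.58.1), fits of the groups compared alone, and leaving out each library.

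Named genes are the members, Cpt1a, list members called in the most contrasts, the 5 genes most like each member and the nearest neighbours, of which 1 is not reported here. Genes outside that rule, such as Gcgr, Copb2, Txnip, Fbxo32, Acly, Asph and Map2k6, were named after their values were seen. The members and lists were chosen with earlier results of these data known. Nothing says whether libraries are separate animals beyond the labels' numbering, so p-values measure the spread between these samples. No protein sequences were used here.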

Additional observations from a re-analysis of the deposited data

Results flagged for a closer look

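Among the list genes, Ccng2 and Acot3 were called for the difference of the genotype effects between the refed and the fasted state. Rab30 was named from this contrast, so it is not counted with them and is given with no test. It stood at −1.82 (log2), higher in LKO than in control after the fast (1.35) and not after refeeding (−0.47). Ccng2, a cyclin G gene on the FOXO1 list, had −1.44 (edgeR adjusted p = 0.0194) and lost the call without S48. Acot3, an acyl-CoA thioesterase on the PPARA list, had −2.05 (edgeR adjusted p = 0.0334) and lost the call in 9 of 16 omissions of a library, with a highest adjusted p of 0.083 without S55. Acot3 belongs to a family with related members, Acot1 and Acot2 among them, and how reads shared between genes were counted is not given in the sources used here. Over all genes tested 0.538% were called in this contrast.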

How the results depend on the processing

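Of 228 fold values of the members over all settings, 227 kept their direction and stayed within the replicate spread, and the fasted genotype value of Rgs16 ran from −1.004 without S46 to 0.0901 without S41, where it reversed. All 48 group levels recomputed stayed within 1 SD. Leaving out a library moved the number of genes called from 1048 to 1985 in the fasted genotype contrast (1772 in the full fit, lowest without S44), from 197 to 601 in the refed one (526, lowest without S48), and between 1220 and 2483 in the control refeeding contrast (2238, lowest without S40). For the difference of the genotype effects (78) it moved from 8 without S48 to 282 without S49. DESeq2 called 924 genes in the refed genotype contrast and 467 for the difference of the genotype effects, for which a filter at a mean of 5 CPM gave 197. Of the 78 genes 45 were higher and 33 lower, against 43 higher and 65 lower under upper quartile scaling. No paired analysis was possible because the columns of the libraries carry no replicate number. The lowest counts of Rgs16 and Rab30 in a library were 191 and 135, and counting error was not compared with the spread between livers.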
